A study of Homo sapiens with 6 samples.

Results

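AP-1 (activator protein 1) transcription factors were examined in PANC-1 cells after CD73 knockdown. The genes were 10 members of the JUN, FOS, ATF and MAF families, namely JUN, JUNB, JUND, FOS, FOSB, FOSL1, FOSL2, ATF3, ATF2 and MAFF. They were found by matching the Ensembl identifiers of the 30735 genes in the files to these symbols, and each symbol matched 1 identifier. Of the 10 genes, 9 had at least 1 RPKM (reads per kilobase of gene, scaled to the library total) in at least 3 samples and were tested together with all genes that met this limit, while FOS did not and is described without its place in that test. PANC-1, an established line of human origin, was derived from a ductal adenocarcinoma of the pancreas, and CD73, encoded by NT5E, is the cell surface enzyme that makes adenosine from AMP. The study knocked down CD73 to look for genes that act downstream of it. RNA was sequenced from 3 samples that received CD73 siRNA and 3 that received the negative control, all by lipid transfection in serum-free medium. No untransfected cells were among the samples, the CD73 siRNA was a single catalogue product whose sequence was not given, and the study describes the 3 samples of each group as separate knockdown experiments.

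AP-1 is a pair of basic leucine zipper (bZIP) proteins, classically a JUN protein with a FOS protein or JUN with JUN. JUN proteins can pair with each other, whereas FOS proteins need a partner. The pairs bind the sequence TGANTCA, and pairs that contain ATF2 or ATF3 bind the longer site TGANNTCA. Several of the genes are immediate-early genes, whose mRNA rises and falls quickly after serum, growth factors or stress, and the activity of the proteins is further set by the ERK, JNK and p38 kinases, which mRNA levels do not show. FOSL1, which encodes FRA-1, is the FOS protein best known from RAS-mutant carcinoma cells.

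Library totals recovered from the values were 15009113 to 16836207 reads per sample. NT5E, the target of the siRNA, was at 3.36, 6.85 and 8.22 RPKM in CD73 siRNA samples 1, 2 and 3 and at 14.0, 13.9 and 17.1 RPKM in negative control samples 1, 2 and 3, so the groups did not overlap and the knockdown mean was 41.0% of the control mean. The knockdown was deepest in the samples numbered 1, at 24.1% of control, against 49.4% and 47.9% in those numbered 2 and 3. GAPDH, a glycolytic enzyme used as a reference gene, differed by -0.01 ± 0.09 (SE) on the log2 scale (limma adjusted p = 0.969). Of the 4 ductal keratins checked, KRT8 and KRT18 were expressed in every sample, KRT19 was at 3.59 to 5.39 RPKM and KRT7 was nearly absent, at 0.0145 to 0.107 RPKM. The summed keratin level was 70.2 to 99.4 RPKM in knockdown cells and 132.7 to 250.5 RPKM in controls, with KRT8 (log2 difference -1.27) and KRT18 (-0.68) both lower after knockdown at an unadjusted limma p under 0.01 (adjusted p = 0.303 for both). Of 11 markers of other cell types, 7 were in the files. PTPRC, CD68, PECAM1, CDH5 and INS stayed below 0.1 RPKM in every sample, and the collagens COL1A1 and COL3A1 made up nearly all of a summed level of 17.4 to 31.0 RPKM in knockdown cells and 18.8 to 31.4 RPKM in controls. The part of these changes in the results was not tested. The samples numbered 2 were the highest of their group for most AP-1 genes in both groups, and results are therefore given within each number and without these samples.

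The stretches of reference sequence upstream of the AP-1 genes are shown because several of these genes are known to be controlled by factors of their own or the related CREB family. Whether such sites have a part in the differences between these samples was not tested. RefSeq promoter sequences (GRCh38.p14, 250 bases before to 50 bases after the start) were matched for 8 of the 10 genes, and FOSL1 and ATF2 had no entry. They were searched on both strands for TGANTCA, TGANNTCA and the core TGACG, which lies within TGANNTCA wherever that site reads TGACGTCA. The CArG box (CCWWWWWWGG, where W is A or T) was searched for as well. In 6 of the 8 genes (JUN, JUND, FOS, FOSB, FOSL2 and MAFF) a TGANNTCA or TGACG match began 80 to 40 bases before the start, an interval chosen after the positions were seen. Over all 35116 promoters in the table, 8.44% held such a match in that interval. Anywhere in the promoter, TGANNTCA was found in 4 of the 8 genes (11.5% of all promoters), TGACG in 7 (24.6%) and TGANTCA, the AP-1 site itself, in 1, FOSL2 (7.71%). The CArG box was found in 0 of the 8 (1.29%). Sequence more than 250 bases before the start was not searched, so a CArG box further upstream would have been missed. Shares of genes and of promoters are not alike, since ATF3 and MAFF have more than 1 promoter. The match nearest the start among those upstream of it is given for each gene, and for FOSL2 also its TGANTCA match downstream, with 11 bases on either side, 5′ to 3′ on the strand of the gene, with the matched bases in capitals. A match is only a run of letters, and binding was not measured.
JUN (chr1:58784096-58784125, minus strand, 67 bases before the start): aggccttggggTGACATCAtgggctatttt
JUND (chr19:18281658-18281687, minus strand, 54 bases before): aacgggggcggTGAGCTCAtcgcgccgagc
MAFF (chr22:38201929-38201958, plus strand, 54 bases before): ggccgggtcggTGACGTCAccgcatgactg
FOS (chr14:75278753-75278779, plus strand, 64 bases before): ggttgagcccgTGACGtttacactcat
FOSB (chr19:45467925-45467951, plus strand, 60 bases before): caaggggcgggTGACGtaagcaggggg
FOSL2 (chr2:28392781-28392807, plus strand, 66 bases before): gagtctggggtTGACGtgagtgaatcc
FOSL2 (chr2:28392851-28392879, plus strand, from 5 bases after the start): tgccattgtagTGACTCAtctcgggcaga
ATF3 (chr1:212565273-212565302, plus strand, 123 bases before): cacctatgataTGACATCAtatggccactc
JUNB (chr19:12791338-12791364, plus strand, 137 bases before): cttcctgacagTGACGcgagccgcctc
The windows of JUN, FOSL2 and MAFF lie inside the gene, and that of FOS partly so, in GENCODE release 29, which places those gene starts further upstream. JUNB and ATF3 had no match in the interval of 80 to 40 bases.

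Among the JUN genes, JUNB alone differed between the groups. JUNB (ENSG00000171223, chr19:12791496-12793315, a gene of 1 exon on the plus strand) encodes a JUN protein that activates AP-1 sites more weakly than JUN in many settings. It was measured at 7.83, 12.8 and 10.4 RPKM in CD73 siRNA samples 1, 2 and 3 and at 33.3, 17.9 and 14.8 RPKM in negative control samples 1, 2 and 3. Every knockdown sample was below every control, and control 1 was far above the other 2 controls. The mean was 10.3 ± 2.48 RPKM after knockdown and 22.0 ± 9.89 RPKM in controls (SD, n = 3 each), or 46.9% of control. In bulk RNA, fewer cells that express the gene and less mRNA per cell cannot be told apart. The log2 difference was -0.96 ± 0.29 (SE, limma), with an unadjusted p of 0.00978 and an adjusted p = 0.316, which passed the unadjusted limit of 0.01 applied here and not an adjusted p of 0.05. The exact permutation test gave p = 0.1, the smallest that 3 samples against 3 allow.

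The JUNB difference was present within each sample number but unequal in size. Knockdown cells held 23.5% of the control level in the samples numbered 1, 71.2% in those numbered 2 and 70.0% in those numbered 3. NT5E also differed most in the samples numbered 1, but so did GAPDH, KRT8 and KRT18. JUN differed most in those numbered 2, and FOSB and MAFF in those numbered 3. A link between the JUNB and NT5E differences was not tested. With the sample number as a block the same difference had an unadjusted limma p of 0.0129 (adjusted p = 0.139) and no longer passed 0.01, and without both samples numbered 2 it was -1.22 (limma adjusted p = 0.234) and passed with an unadjusted p of 0.00979. The call was also lost without CD73 siRNA sample 1 (-0.80) or 3 (-0.98) and without control 1 (-0.64) or 2 (-1.06), with unadjusted limma p values of 0.0402, 0.0229, 0.0167 and 0.0122 in that order. The JUNB exon shares 259 of its 1820 bases with HOOK2 on the opposite strand, and since the sources used here do not say whether strand was counted, reads of the shared bases cannot be assigned to either gene.

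JUN (ENSG00000177606, chr1:58780788-58784327, 1 exon, minus strand) encodes c-Jun, the JUN protein that activates most strongly. It stood at 23.2, 54.9 and 22.6 RPKM in CD73 siRNA samples 1, 2 and 3 and at 24.6, 45.0 and 25.2 RPKM in the controls. The samples numbered 2 were high in both groups, the other 4 lay within 22.6 to 25.2 RPKM, and the groups overlapped. The log2 difference was 0.01 ± 0.36 (SE, limma adjusted p = 0.991). JUND (ENSG00000130522, chr19:18279760-18281622, 1 exon, minus strand), the JUN gene usually expressed constitutively, was at 8.35, 10.3 and 3.95 RPKM after knockdown and at 7.83, 9.78 and 4.54 RPKM in controls. Its levels ordered the sample numbers alike in both groups, with number 3 lowest, and the log2 difference was -0.0041 ± 0.34 (SE, limma adjusted p = 0.998). Between 124 and 302 reads lay behind each JUND value, against 1319 to 3059 for JUN and 229 to 972 for JUNB.

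**Figure D1:**
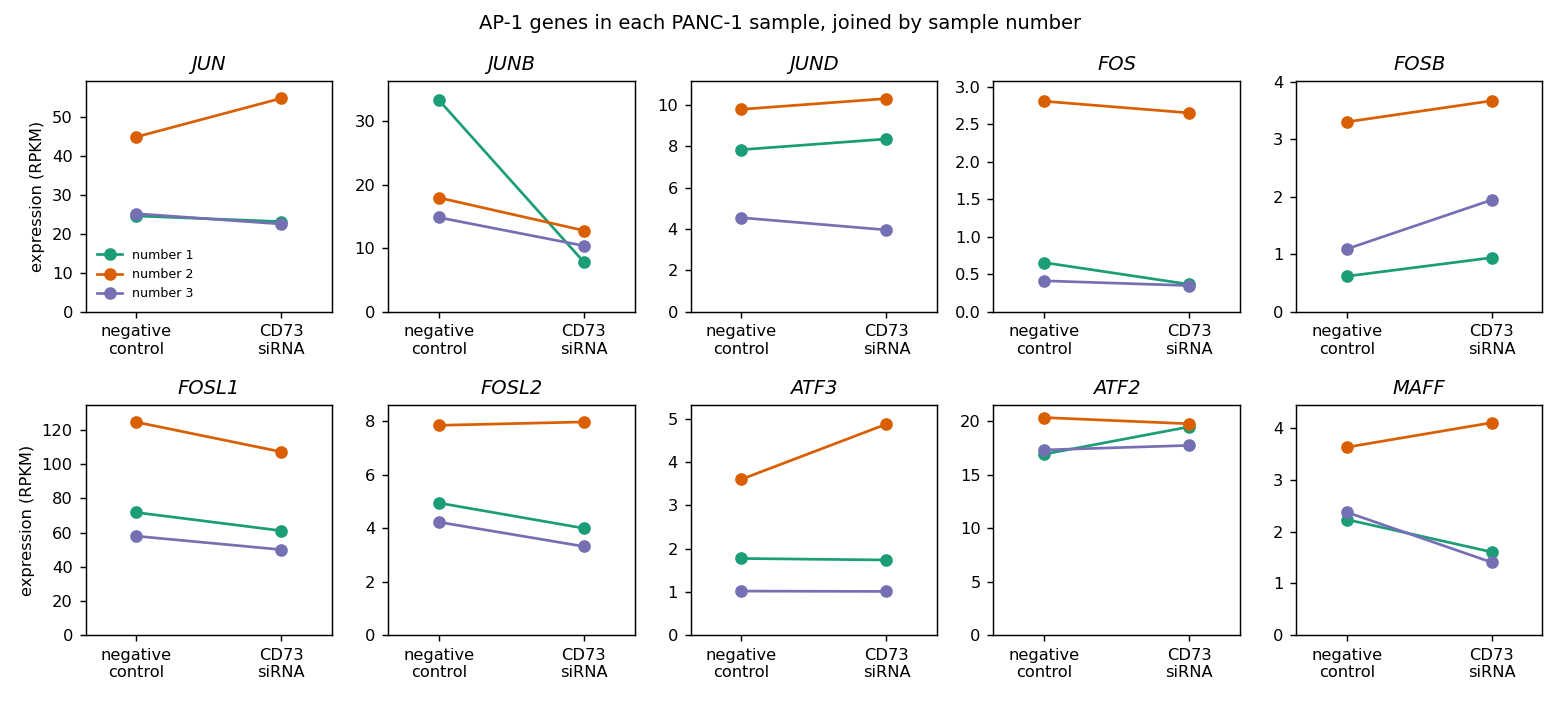
Expression of the 10 AP-1 genes (RPKM, linear axes from 0) in each sample, with lines joining the negative control and CD73 siRNA samples of the same number. JUNB runs downward in all 3 pairs, from 33.3 to 7.83 RPKM in number 1, while for the other genes the samples numbered 2 lie highest in both groups.

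Of the FOS genes, FOSL1 was the most abundant and was slightly lower in each pair. FOSL1 (ENSG00000175592, chr11:65892049-65900573, minus strand) was at 61.2, 107 and 50.1 RPKM in CD73 siRNA samples 1, 2 and 3 and at 71.8, 125 and 58.0 RPKM in the controls. The groups overlapped because the samples numbered 2 were high in both. Knockdown cells held 85.2%, 86.1% and 86.4% of the control level in the samples numbered 1, 2 and 3. On the log2 scale the 3 pair differences lay between -0.23 and -0.21. The fit of 3 samples against 3 gave -0.22 ± 0.33 (SE, limma adjusted p = 0.829), and with the sample number as a block the same difference had an SE of 0.07 and an unadjusted limma p of 0.0165 (adjusted p = 0.148), which did not pass 0.01 either.

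FOSL2 (ENSG00000075426, chr2:28392448-28417312, plus strand), which encodes FRA-2, was at 4.0, 7.96 and 3.32 RPKM after knockdown and at 4.94, 7.84 and 4.23 RPKM in controls. Its knockdown level was 80.9% and 78.5% of control in the samples numbered 1 and 3 and 101.6% in those numbered 2, and the log2 difference of -0.17 ± 0.29 did not pass the test (SE, limma adjusted p = 0.852). FOSB (ENSG00000125740, chr19:45467995-45475179, plus strand), an immediate-early gene, was at 0.941, 3.67 and 1.95 RPKM after knockdown and at 0.618, 3.31 and 1.09 RPKM in controls. FOSB was the only one of the 9 tested genes that was higher after knockdown in all 3 pairs, at 152%, 111% and 178% of control, yet the groups overlapped and the log2 difference of 0.29 ± 0.41 did not pass (SE, limma adjusted p = 0.806, and adjusted p = 0.216 with the block). FOS (ENSG00000170345, chr14:75278774-75282230, plus strand), the classical serum-response gene, was at 0.365, 2.65 and 0.349 RPKM after knockdown and at 0.655, 2.80 and 0.412 RPKM in controls. FOS thus exceeded 1 RPKM in the samples numbered 2 alone, and 19 to 34 reads lay behind each of its other values. When all genes were fitted with no limit on level, the FOS difference was -0.13 ± 0.54 (SE, limma adjusted p = 0.957).

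The ATF and MAF genes did not differ between the groups beyond the spread of their samples. ATF3 (ENSG00000162772, chr1:212565334-212620777, plus strand), a stress-induced factor that can repress as well as activate, was at 1.74, 4.88 and 1.01 RPKM in CD73 siRNA samples 1, 2 and 3 and at 1.77, 3.60 and 1.02 RPKM in the controls. In the samples numbered 1 and 3 the knockdown levels were 98.0% and 99.2% of control. The log2 difference was 0.11 ± 0.42 (SE, limma adjusted p = 0.939), and within the samples numbered 2 it was 0.35. MAFF (ENSG00000185022, chr22:38200767-38216511, plus strand), a small MAF protein without an activation domain, was at 1.61, 4.10 and 1.41 RPKM after knockdown and at 2.23, 3.62 and 2.37 RPKM in controls. MAFF was lower after knockdown in the samples numbered 1 and 3, at 72.0% and 59.3% of control, and at 113% in those numbered 2 (log2 difference -0.22 ± 0.29, SE, limma adjusted p = 0.789). ATF2 (ENSG00000115966, chr2:175072250-175168382, minus strand), a constitutive partner of JUN that is activated by p38 and JNK, was at 19.5, 19.8 and 17.8 RPKM after knockdown and at 16.9, 20.4 and 17.3 RPKM in controls. It was the steadiest of the 10 genes, with a log2 difference of 0.06 ± 0.11 (SE, limma adjusted p = 0.852), although it shares 246 exon bases with AC096649.1 on the opposite strand.

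Counted over the set, 1 of the 9 tested AP-1 genes passed an unadjusted limma p of 0.01, and it was lower after knockdown. Of all 12527 genes tested, 3.13% passed in either direction and 1.31% passed as lower. At an adjusted p of 0.05, 0 of the 9 passed, against 0.00798% of all genes, and 1 of the 9 had an unadjusted limma p under 0.05, as did 12.1% of all genes. With the sample number as a block, 0 of the 9 passed 0.01, where 7.57% of all genes passed and 3.3% passed as lower, and 2 of the 9 (JUNB and FOSL1) were under 0.05, as were 23.3% of all genes. The groups did not overlap for 1 of the 9 genes, against 18.4% of all genes. All 3 pairs moved the same way for 3 of the 9 (JUNB, FOSL1 and FOSB), against 51.4% of all genes. The median log2 difference of the 9 genes was -0.0041, beside 0.01 over all genes, with 4 above 0 and 5 below. The exact permutation p of the AP-1 genes other than JUNB was 0.5 to 1.

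**Figure D2:**
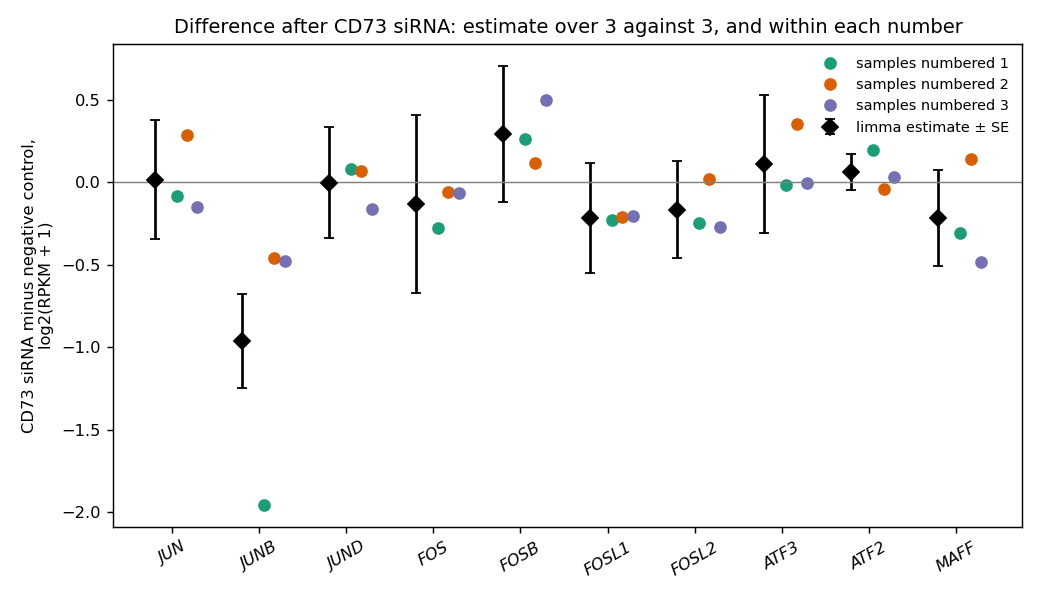
Difference between CD73 siRNA and negative control in log2(RPKM + 1) for each AP-1 gene. Black diamonds with bars are the limma estimate over 3 against 3 samples ± SE (for FOS from the fit without a limit on level), and coloured points are the differences within sample numbers 1, 2 and 3. The JUNB points lie at -1.96, -0.46 and -0.48, and the FOSL1 points between -0.23 and -0.21.

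Most AP-1 genes differed more by sample number than by CD73 siRNA. The samples numbered 2 were the highest of their group, in both groups, for 9 of the 10 genes and for 8 of the 9 tested, against 22.7% of all genes tested. JUNB was the exception, since its highest control was number 1. Over the mean of the other 2 samples of the group, the sample numbered 2 was 7.42-fold higher for FOS in knockdown cells and 5.26-fold in controls. For ATF3 it was 3.54-fold and 2.58-fold higher, for FOSB 2.54-fold and 3.87-fold, and for MAFF 2.72-fold and 1.57-fold. JUN gave 2.40-fold and 1.80-fold, FOSL2 2.18-fold and 1.71-fold, FOSL1 1.93-fold and 1.92-fold, and JUND 1.67-fold and 1.58-fold. For JUND the samples numbered 3 were low, at 3.95 and 4.54 RPKM in knockdown cells and controls. Those numbered 2 (10.3 and 9.78 RPKM) lay closer to those numbered 1 (8.35 and 7.83 RPKM). ATF2 was nearly level at 1.06-fold and 1.19-fold, and JUNB, at 1.40-fold and 0.746-fold, went opposite ways in the groups. By the range of the 3 pair means on the log2 scale, FOS (1.43), ATF3 (1.37) and FOSB (1.34) spread most and ATF2 (0.18) least. Between them lay FOSL1 (1.09), JUND (1.07), JUN (1.03), FOSL2 (0.91), MAFF (0.77) and JUNB (0.37). The order did not divide inducible from constitutive genes, since JUND spread more than JUN and JUNB.

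An F-test of the sample number beside the group, added after these values were seen, was fitted over all genes with limma. It gave an unadjusted p under 0.01 for 7 of the 9 tested AP-1 genes, against 9.27% of all genes, and an adjusted p under 0.05 for 6 of the 9, against 1.82%. The 6 were FOSL1 (adjusted p = 0.0169), JUND (0.0261), ATF3 (0.0294), JUN (0.0300), FOSB (0.0308) and FOSL2 (0.0387). MAFF had an adjusted p of 0.0876, ATF2 of 0.435 and JUNB of 0.699. The range of the 3 pair means exceeded the size of the knockdown difference in 9 of the 10 genes and in 72.9% of all genes tested. Its median on the log2 scale was 1.03 over the 9 tested AP-1 genes and 0.26 over all genes. A range over 3 means tends to be larger than a difference of group means, whose median size over all genes was 0.14. The count of 9 therefore has meaning only beside the share of all genes. The count with an adjusted F-test p under 0.05 fell to 0 of 9 without CD73 siRNA sample 3 or without control 3, where no gene of the 12527 passed. In these fits 6 and 7 of the 9 had an unadjusted F-test p under 0.01, against 4% and 3.95% of all genes. The labels give no date, plate or batch for the numbers, and what the numbers stand for was not tested.

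**Figure D3:**
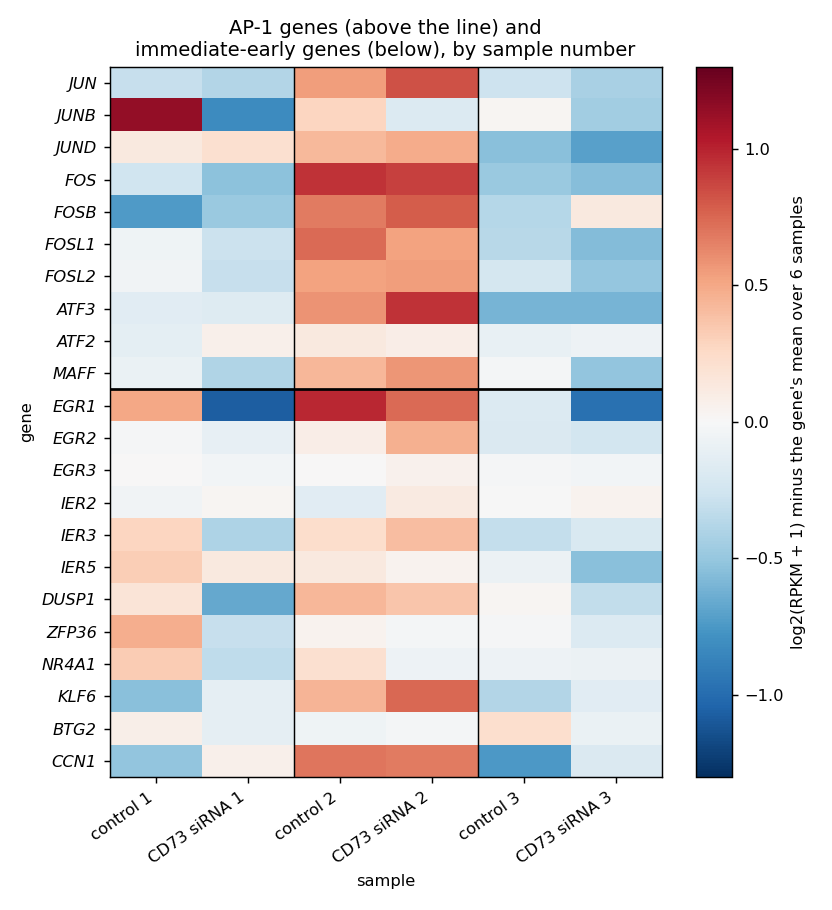
Level of each AP-1 gene (above the line) and of each gene of an immediate-early list (below) in the 6 samples, as log2(RPKM + 1) minus the gene's mean over the samples, with red above and blue below the mean. Columns are ordered by sample number. The pair numbered 2 is above the mean for every AP-1 gene except JUNB, whose 2 values fall on either side of it.

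The make-up of the JUN and FOS families was compared per length of gene. In the controls the order of the mean levels was FOSL1 (84.8 ± 35.2 RPKM), JUN (31.6 ± 11.6), JUNB (22.0 ± 9.89), ATF2 (18.2 ± 1.87), JUND (7.38 ± 2.65), FOSL2 (5.67 ± 1.91), MAFF (2.74 ± 0.77), ATF3 (2.13 ± 1.33), FOSB (1.67 ± 1.43) and FOS (1.29 ± 1.32), each as mean ± SD of 3. All 3 control values lay above all 3 of the next gene at the steps from FOSL1 to JUN, from ATF2 to JUND and from FOSL2 to MAFF, and the other neighbours overlapped. FOSL1 made up 88.2% to 92.0% of the summed FOS-family RPKM in every sample, so FOS and FOSB together were minor in all 6.

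The summed FOS-family level was 66.5, 122 and 55.7 RPKM in CD73 siRNA samples 1, 2 and 3 and 78.0, 139 and 63.7 RPKM in the controls, a log2 difference of -0.20 (exact permutation p = 0.6). The summed JUN-family level was 39.4, 78.0 and 36.9 RPKM after knockdown and 65.8, 72.7 and 44.6 RPKM in controls, a log2 difference of -0.30 (exact permutation p = 0.5) that was -0.64 without CD73 siRNA sample 2 and -0.11 without CD73 siRNA sample 3. Both sums overlapped between the groups. The share of JUNB in the JUN-family sum was 19.9%, 16.4% and 28.1% after knockdown and 50.6%, 24.7% and 33.3% in controls, lower within each number, although CD73 siRNA sample 3 exceeded control 2 (exact permutation p = 0.2). JUN took the largest share in every sample except control 1, where JUNB was ahead of JUN at 33.3 against 24.6 RPKM.

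**Figure D4:**
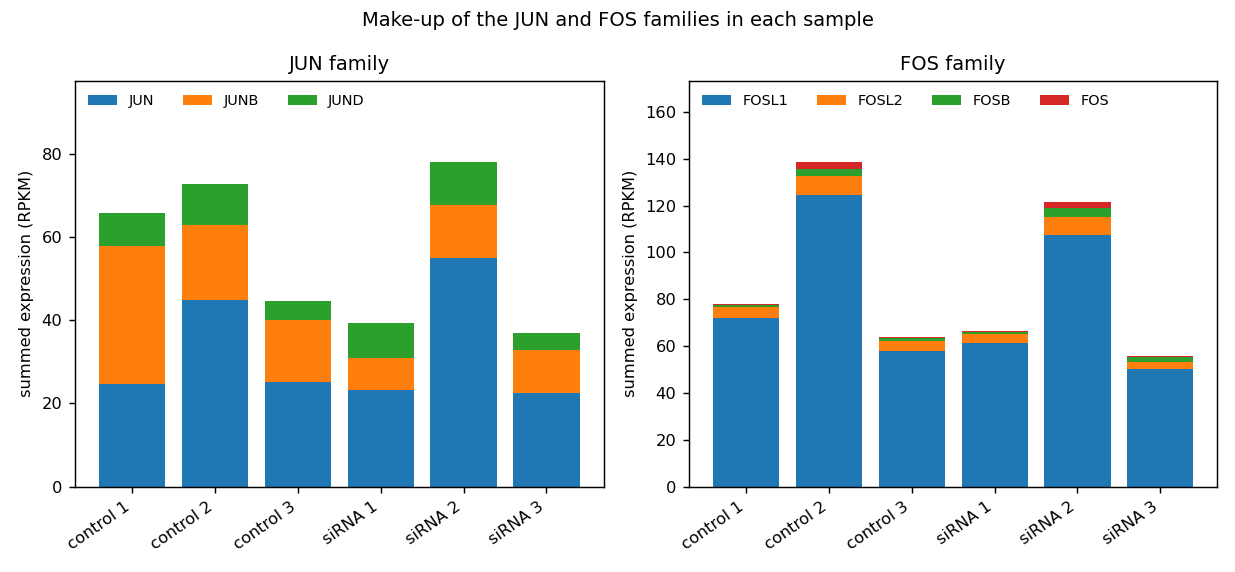
Summed expression (RPKM, bars from 0) of the JUN family (left) and the FOS family (right) in each sample, with each gene's part in colour. FOSL1 fills 88.2% to 92.0% of every FOS-family bar, and JUNB takes 50.6% of the JUN-family bar in control 1 and 16.4% to 33.3% in the other 5 samples.

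The genes whose log2(RPKM + 1) followed FOSL1 most closely over the 6 samples were MRM3 (Pearson r = 0.997), SEPSECS (r = 0.996) and CACNG6 (r = 0.996). Among the AP-1 genes, FOSL2 came closest (r = 0.985, rank 17 of all genes tested). ATF3 (r = 0.934), JUN (r = 0.919), MAFF (r = 0.916) and JUND (r = 0.834) followed at ranks 217, 297, 314 and 799. ATF2 (r = 0.706), FOSB (r = 0.696) and JUNB (r = 0.305) were at ranks 1603, 1670 and 4475. These 6 points share their libraries and the high level of the samples numbered 2, so the values describe the order of the samples only.

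Textbook AP-1 target genes were mostly lower after knockdown, with 3 of 17 past the test. Of all genes tested, 3.13% passed and 1.31% passed as lower. The target list held 30 genes, of which 28 were in the files and 17 passed the limit on level, and it was drawn up with earlier results of these data known. The genes left out were low, among them MMP1, MMP3, MMP9, MMP10, MMP13 and IL6. The median log2 difference was -0.43, beside 0.01 over all genes, with 13 of the 17 below 0. The groups did not overlap for 7 of the 17, against 18.4% of all genes. PLAU, the urokinase protease, was at 20.7, 38.2 and 24.0 RPKM in CD73 siRNA samples 1, 2 and 3 and at 54.5, 50.1 and 42.0 RPKM in the controls (log2 difference -0.84 ± 0.21, SE, limma unadjusted p of 0.00446, adjusted p = 0.303). CCND1, which encodes cyclin D1, was at 75.5, 76.9 and 72.1 RPKM after knockdown and at 180, 104 and 129 RPKM in controls (log2 difference -0.83 ± 0.18, SE, limma unadjusted p of 0.00186, adjusted p = 0.303). EGFR, the epidermal growth factor receptor, was at 23.7, 35.1 and 34.5 RPKM after knockdown and at 45.0, 42.8 and 48.3 RPKM in controls (log2 difference -0.55 ± 0.16, SE, limma unadjusted p of 0.00757, adjusted p = 0.305). None of these 3 genes overlapped between the groups. HMGA1, a chromatin protein and the most abundant gene of the list, was at 307, 378 and 326 RPKM after knockdown and at 449, 398 and 377 RPKM in controls, and its groups overlapped (log2 difference -0.28 ± 0.11, SE, limma adjusted p = 0.395).

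More AP-1 targets passed within sample numbers, as did more of all genes. With the number as a block, 6 of the 17 passed an unadjusted limma p of 0.01, all lower after knockdown and none past the adjusted limit. Of all genes, 7.57% passed with the block and 3.3% passed as lower, against 3.13% and 1.31% without it. Among the added genes were the receptor kinase AXL (log2 difference -0.55, limma adjusted p = 0.113) and PLAUR, the urokinase receptor (-0.58, adjusted p = 0.119). AXL was at 9.04, 20.7 and 9.86 RPKM after knockdown and at 16.4, 29.8 and 12.9 RPKM in controls, high in the samples numbered 2 of both groups and lower after knockdown in each pair. Without both samples numbered 2, 8 of the 17 passed, all lower, where 4.25% of all genes passed. The count of targets was 7 without CD73 siRNA sample 2 and 1, CCND1 alone, without CD73 siRNA sample 1 or control 1. In these fits 2.52%, 0.926% and 1.5% of all genes passed, in that order. The targets are named from general knowledge of AP-1, and binding to them in PANC-1 cells was not measured.

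**Figure D5:**
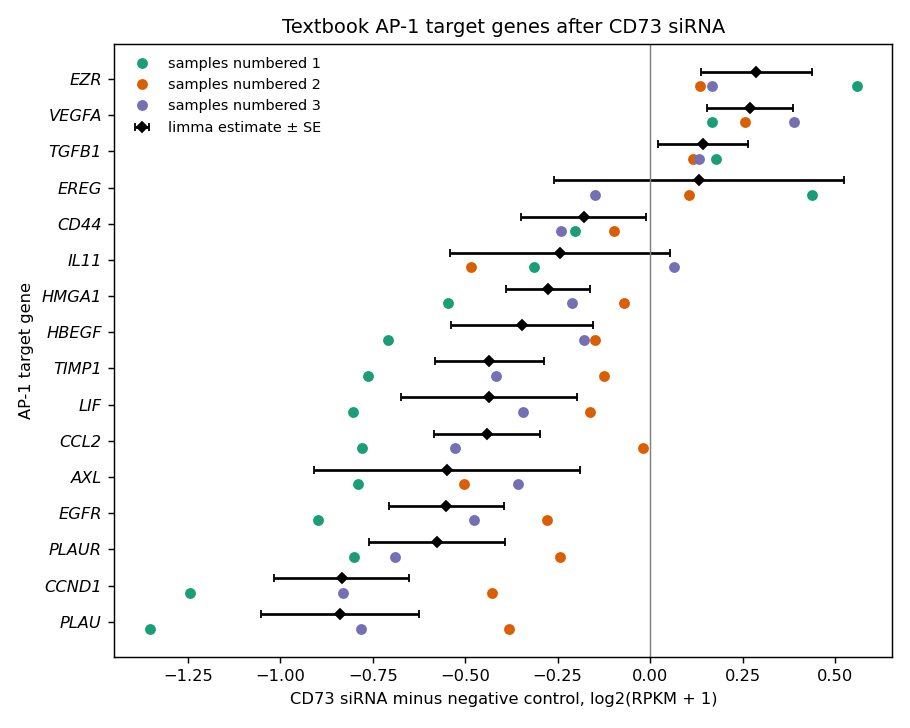
Difference between CD73 siRNA and negative control in log2(RPKM + 1) for 16 of the tested AP-1 target genes. Black diamonds with bars are the limma estimate over 3 against 3 samples ± SE, and coloured points are the differences within each sample number. Of the 16 estimates, 12 lie below 0, and PLAU, CCND1 and EGFR passed an unadjusted p of 0.01.

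Other bZIP factors, which can share partners or sites with AP-1, gave 0 of 14 past a limma p of 0.01, and 3 of the 14 had p under 0.05, where 12.1% of all genes did. The median log2 difference of this list was 0.01, with 7 above 0 and 7 below. ATF4, the main factor of the integrated stress response and the most abundant of the list, was at 126, 210 and 154 RPKM in CD73 siRNA samples 1, 2 and 3 and at 130, 197 and 124 RPKM in the controls (limma adjusted p = 0.865), again highest in the samples numbered 2. With the sample number as a block 3 of the 14 passed, against 7.57% of all genes. They were DDIT3, the stress factor CHOP (0.49, limma adjusted p = 0.113), and NFE2L1 (0.46, adjusted p = 0.120), both higher after knockdown, and NFE2L3 (-0.54, adjusted p = 0.113), which was lower. DDIT3 was at 9.97, 22.9 and 8.26 RPKM after knockdown and at 7.49, 15.5 and 5.21 RPKM in controls, higher within each number although the groups overlapped. One gene of the list passed without control 2 (ATF1) and another without control 3 (ATF5), and ATF1 also passed without both samples numbered 2.

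Immediate-early genes outside AP-1 gave 0 of 9 past a limma p of 0.01 and 0 of 9 with p under 0.05 (all genes, 3.13% and 12.1%). Their median log2 difference was -0.15, with 3 above 0 and 6 below. ZFP36, which destabilises AU-rich mRNAs, was at 80.1, 97.4 and 87.4 RPKM in CD73 siRNA samples 1, 2 and 3 and at 138, 102 and 97.9 RPKM in the controls (limma adjusted p = 0.417), so that its groups did not overlap. CCN1, a matricellular protein, was at 123, 188 and 103 RPKM after knockdown and at 81.8, 191 and 69.7 RPKM in controls (limma adjusted p = 0.713). With the block 2 of the 9 passed, against 7.57% of all genes. They went in opposite directions, KLF6 (0.32, limma adjusted p = 0.119) and EGR1 (-0.87, adjusted p = 0.122). EGR1, a serum-response gene like FOS, was at 1.90, 9.15 and 2.12 RPKM after knockdown and at 7.63, 11 and 4.37 RPKM in controls, with the samples numbered 2 highest in both groups as for FOS. Without CD73 siRNA sample 2, EGR1 and DUSP1 passed, and without both samples numbered 2, CCN1 passed as well. By sample number, 3 of the 9 had a limma F-test p under 0.01 and KLF6 and CCN1 an adjusted p under 0.05 (all genes, 9.27% and 1.82%).

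Of the tested genes that control AP-1 from upstream, 0 passed an unadjusted limma p of 0.01, where 3.13% of all genes did. The 16 kinase genes were those of the ERK, JNK and p38 cascades with GSK3B, which phosphorylates JUN. Of these, 15 were tested and 0 passed a limma p of 0.01 with or without the block (all genes, 7.57% with it and 3.13% without). With the block 5 of the 15 were under 0.05, and 1 was without it (all genes, 23.3% and 12.1%). The median log2 difference was 0.02. MAP2K2, which encodes MEK2, was at 16.9, 18.4 and 19.6 RPKM after knockdown and at 20.3, 20.0 and 20.3 RPKM in controls. Its groups thus did not overlap, with a log2 difference of -0.14 ± 0.10 (SE, limma adjusted p = 0.583). The groups did not overlap for 4 of the 15 kinase genes, against 18.4% of all genes. All 6 serum response factors and cofactors were tested and 0 passed 0.01 with or without the block. Of the 6, 3 had a limma p under 0.05 with the block and 1 without it (all genes, 23.3% and 12.1%). Their median log2 difference was 0.20. SRF was at 20.9, 24.8 and 21.8 RPKM after knockdown and at 16.8, 21.3 and 17.4 RPKM in controls (0.27 ± 0.12, SE, limma adjusted p = 0.429, and adjusted p = 0.134 with the block). The most abundant of them, ELK1 and ELK3, differed by -0.0023 and -0.08 (limma adjusted p = 0.996 and 0.770). Of 4 ubiquitin ligase genes that act on JUN, 0 passed 0.01 or 0.05 (all genes, 3.13% and 12.1%). COP1 was at 8.18 to 11.4 RPKM and ITCH at 24.8 to 27.2 RPKM over the 6 samples.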

How the data were processed

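PANC-1 RNA of 3 CD73 siRNA and 3 negative control samples was sequenced by the authors, who deposited a table of values for 30735 Ensembl genes from each. The submitters' processing notes name bcl2fastq, Bowtie2 2.2.3, HTSeq 0.6.0 and hg38 without giving their roles, and the annotation and the strand setting are not given in the sources used here. The unit was read as RPKM from the deposited values. Multiplied by merged exon length in GENCODE release 29, 95.1% to 95.2% of values worth under 1000 reads were whole within 0.02 reads, and the step gave the library total behind each table. Release 29 lacked 132 of the identifiers, and 6299 had no symbol in the name table used. Read numbers show counting precision and were not tested, and p-values measure only the spread between these samples, which may be technical.

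Values were compared as log2(RPKM + 1) in R 4.3.3 with limma 3.58.1 (lmFit, eBayes with a trend) over the 12527 genes that reached 1 RPKM in 3 or more samples, with Benjamini-Hochberg adjustment over all of them. The design named a count test for counts and limma for normalized values. Adding 1 understates the changes of low genes, and percentages of control were taken on RPKM itself. The limit was an unadjusted p of 0.01, since the study gives 0.01 without naming an adjustment, with an adjusted p of 0.05 beside it. Single genes and family sums also had an exact two-sided permutation test. The fit was tested on simulated data. The numbers 1 to 3 come from the sample labels. Deviations of same-numbered samples from their group means correlated at 0.20, 0.48 and 0.55 over genes, all above 0.1, so the number was also used as a block. Alternatives were a pseudocount of 0.1, no filter, median scaling, the block and leaving out each sample. Leaving out both samples numbered 2 and the F-test of the number were added after the values were seen. Named were all 10 members, NT5E and GAPDH, the genes of each other list past the limit (in the block fit too) and its 2 most abundant genes, and the 3 genes most like FOSL1. Some genes that this rule names are not reported here. The other genes given values were chosen after their values were seen. The members and lists were chosen with earlier results of these data known.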

Additional observations from a re-analysis of the deposited data

How the results depend on the processing

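JUNB was lower under all 11 alternatives and past its limit under 5 of them. With the replicate block the count past an unadjusted p of 0.01 was 0 of 9 for the AP-1 genes (unpaired value 1), 6 for the targets (unpaired value 3), 3 for the other bZIP factors and 2 for the immediate-early genes (unpaired value 0 for both), and 0 for the kinases. The block changed no call of a single AP-1 gene other than JUNB. With no filter on low values the counts were 0 for the AP-1 genes (JUNB, unadjusted limma p of 0.0221) and 1 for the targets, where 1.51% of all genes passed. The test of sample number without the filter gave an adjusted p under 0.05 for 0 AP-1 genes and 0 of all genes. In it 7 AP-1 genes had an unadjusted F-test p under 0.01, against 3.05% of all genes. Without both samples numbered 2, a choice made after seeing the data, the counts were 8 for the targets, 1 for the other bZIP factors and 3 for the immediate-early genes, and the log2 difference of JUN turned to -0.12 and that of ATF3 to -0.012. Leaving out 1 sample at a time, which leaves 2 against 3, gave counts of 0 to 1 for the AP-1 genes and 1 to 7 for the targets. The counts were 0 to 1 for the other bZIP factors and 0 to 2 for the immediate-early genes. By sample number, 0 to 7 AP-1 genes and 0 to 1460 of all genes had an adjusted F-test p under 0.05 in these fits. The median of the AP-1 genes then lay between -0.39 and 0.14, the FOS-family difference between -0.53 and 0.12 and the JUN-family difference between -0.64 and -0.11. Single differences lay between -0.39 and 0.29 for JUN, -0.28 and 0.35 for JUND, -0.030 and 0.70 for FOSB, -0.53 and 0.10 for FOSL1, -0.48 and 0.054 for FOSL2, and -0.33 and 0.44 for ATF3. JUNB stayed between -1.19 and -0.64, MAFF between -0.56 and -0.02 and ATF2 between 0.01 and 0.14. A pseudocount of 0.1 and median scaling turned the direction of none of the 9 tested AP-1 genes and moved no list's count by over 1.5 times. Over all genes 392 passed that limit in the unpaired fit, 948 with the block, 532 without both samples numbered 2, 465 of 30735 with no filter and 116 to 792 without 1 sample. Depth limits FOS most, with 19 reads behind its lowest value.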
